A study of Mus musculus with 5 samples.

Results

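U2, U3 and U7 are small RNAs that RNA polymerase II makes and that receive a trimethylguanosine cap at the 5' end. Here they are the 3 names snRNA_U2, snRNA_U3B and snRNA_U7, of 1042 repeat and RNA names over 5 melRNA-seq libraries of mouse RNA, and they were chosen by name with their read counts, RPM and enzyme ratios known. All 3 names were listed in both libraries of spermatogonia. In testis only U7 had more than 1 read, and U2 had no row. The tables hold names and no gene identifiers, so U2, U3B and U7 were matched by name to the annotated genes Rnu2-10, Rnu3b1 to Rnu3b4 and Rnu7.

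The study compared ways of opening the 5' end before adaptor ligation. RNA of whole testes of C57BL/6J mice at postnatal day 7 was used untreated, after 25 U of TAP for 1.5 h (the labels expand it as tobacco alkaline phosphatase), or after 20 U of 5' polyphosphatase for 0.5 h, with 600 ng of RNA and 1 library each. Spermatogonia of the same strain and day, sorted on EpCAM, gave 2 replicates after 25 U of RppH for 1 h. The labels give the testis protocol for them too, while the methods describe less RNA and another kit. Inserts of 115 to 255 nt were selected for the testis libraries. The labels give this range for spermatogonia too, while the methods state a gel selection without a range. Whole testis holds somatic and germ cells, and as the tables hold no marker transcripts the purity of the sort could not be checked. In such samples fewer cells of a type and less RNA per cell cannot be told apart.

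U2 pairs with the branch point of introns and is a core part of the major spliceosome. U3 is a box C/D small nucleolar RNA that is needed for the first cleavages of the ribosomal RNA precursor. U7 pairs with replication-dependent histone pre-mRNAs and directs the cut that forms their 3' end. An RNA can be ligated to the 5' adaptor only when it carries a 5' monophosphate. TAP and RppH turn both caps and triphosphates into monophosphates, whereas 5' polyphosphatase converts triphosphates alone and does not open a cap. Comparing the treatments addresses whether the reads of a name depended on opening its 5' end.

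The sequences below are those of the annotated mouse genes (GENCODE M21, GRCm38) and show how different the 3 RNAs are in length and in the element each is known for. They were not read from the libraries. Rnu7, the U7 gene, lies at chr6:124741225-124741286 on the minus strand and is 62 nt long, and 30 nt of it are given, with the first letters of its unusual Sm protein binding site, AATTTGT, in capitals. Rnu2-10, the U2 gene, lies at chr11:101658238-101658428 on the plus strand, is 191 nt long, and has the motif GTAGTA, which pairs with the branch point, in capitals. Rnu3b1 lies at chr11:87443237-87443452 on the plus strand, is 216 nt long, and has its box C motif TGATGA in capitals.
U7, bases 6 to 35: ttacagctcttttagAATTTGTctagcagg
U2: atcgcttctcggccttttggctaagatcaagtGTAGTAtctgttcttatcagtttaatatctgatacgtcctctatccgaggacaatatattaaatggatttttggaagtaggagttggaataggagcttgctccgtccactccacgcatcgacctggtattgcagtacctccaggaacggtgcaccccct
U3B: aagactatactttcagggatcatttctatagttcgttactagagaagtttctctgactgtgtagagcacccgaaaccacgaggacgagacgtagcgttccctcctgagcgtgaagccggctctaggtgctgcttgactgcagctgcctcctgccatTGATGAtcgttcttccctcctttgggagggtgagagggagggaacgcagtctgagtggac

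Each motif was found 1 time in its RNA, on the RNA strand only. The U7 letters occurred in 191 of the 2890 annotated snRNA and snoRNA transcripts (6.61%), that of U2 in 76 (2.63%) and box C of U3 in 419 (14.5%). U7 at 62 nt is shorter than the 115 nt lower limit given for the inserts, while U2 and U3B fall inside that window. The read lengths are not part of the tables, so whether the U7 reads were longer than the annotated RNA was not tested. Rnu7 lies inside an untranslated part of an exon of Grcc10 and inside the Gm45234 gene, both on the same strand, so a read from those transcripts cannot be told from a U7 read in a count by name. RefSeq also lists 3 pseudogenes of U7. The 4 genes Rnu3b1 to Rnu3b4 have the same 216 nt sequence and all lie inside the Tex14 gene on its strand, so their reads cannot be told apart. RefSeq also lists Rnu3a and 3 pseudogenes of U3B, and whether the name U3B took reads of these or of Tex14 was not tested. Rnu2-10 overlaps no other annotated gene, and whether the name U2 took reads of other U2-like sequences was not tested.

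The testis tables listed 1160933 reads untreated, 1067851 after TAP and 1081523 after 5' polyphosphatase, and those of spermatogonia listed 3166394 and 1993087 reads. Levels are given as RPM, reads per 1000000 reads of 5.8S rRNA of the same library. The share of 5.8S rRNA among listed reads was 27.2%, 50.2% and 19.2% in the 3 testis libraries and 39.1% and 25.9% in spermatogonia, so RPM and the share of listed reads can give different ratios, and both are given. All intervals were computed from read counts, so they cover counting error and no variation between libraries. The reads carry no molecular identifiers, so copies of a molecule could make the intervals too narrow. In the testis tables from 53.5% to 78.3% of the snRNA reads stood under shortened names from which the RNA cannot be told (snRNA_small, snRNA_RNA and others), against 0% in spermatogonia.

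**Figure D1:**
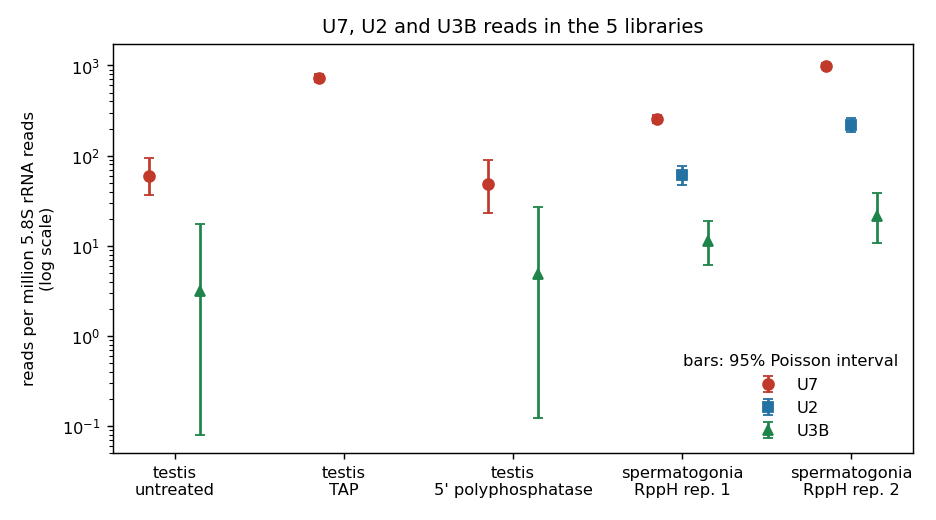
Reads of U7, U2 and U3B per 1000000 5.8S rRNA reads (log axis) in the 5 libraries, 1 point per name and library where listed, with 95% Poisson intervals. U7 stood at 728 RPM after TAP against 60.1 without enzyme, and in spermatogonia the order was U7, U2, U3B in both replicates.

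In testis, U7 had 19 reads in the untreated library, 390 after TAP and 10 after 5' polyphosphatase. These are 60.1 RPM (95% Poisson interval 36.2 to 93.9), 728 RPM (657 to 804) and 48.1 RPM (23.1 to 88.4). The TAP library was high, and the intervals of the other two overlapped each other and lay below it. Per 1000000 listed reads U7 stood at 16.4 untreated, 365 after TAP and 9.25 after 5' polyphosphatase, with the same order. Among the names of each table U7 ranked 191 of 446 untreated, 68 of 616 after TAP and 266 of 521 after 5' polyphosphatase.

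Per 5.8S rRNA read, U7 was 12.1 times higher after TAP than without enzyme (95% interval from the counts 7.64 to 19.2). After 5' polyphosphatase its ratio to the untreated library was 0.800 (0.372 to 1.72), which was not distinguishable from 1 at this depth. Between the enzymes, U7 was 15.1 times higher after TAP (8.08 to 28.3). U7 was chosen with these values known and each treatment has 1 library, so the ratios describe the libraries and no test was made. With 10 or more reads over both libraries, 26.3% of 323 names were at least 2-fold higher after TAP than without enzyme, 41.1% of 314 were so after 5' polyphosphatase, and 5.2% of 346 were at least 2-fold higher after TAP than after 5' polyphosphatase. Per listed read these shares were 37.7% of 324, 30.2% of 315 and 19% of 347 names, so the last of them moved most with the denominator. The median ratio of all these names was 0.590, 1.76 and 0.298, respectively. U7 ranked 8 among the 323 names in the first comparison and 4 among the 346 names in the last. Its neighbours in the first were tRNA_chr5.trna1043-AsnGTT, at 14.4 with 98 reads after TAP, and tRNA_chr14.trna209-ArgACG, at 10.96 with 409.

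The choice of denominator changed the size of the U7 ratio but not its side of 1. With all listed reads as the denominator, TAP over untreated was 22.3 (14.1 to 35.4) and TAP over 5' polyphosphatase was 39.5 (21.1 to 74.0). With listed reads other than rRNA they were 33.9 (21.4 to 53.7) and 65.7 (35.1 to 123). The ratio of 5' polyphosphatase to untreated lay between 0.516 and 0.800 over the 5 denominators, each with an interval that included 1.

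**Figure D2:**
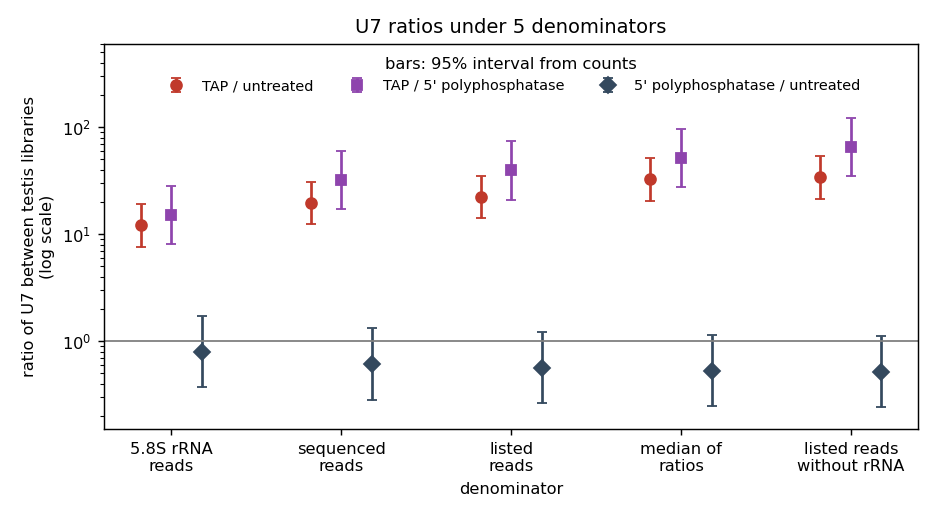
Ratio of U7 between testis libraries (log axis) under 5 denominators, with 95% intervals from the counts. TAP over untreated ran from 12.1 to 33.9 and TAP over 5' polyphosphatase from 15.1 to 65.7, while 5' polyphosphatase over untreated stayed below 1 with intervals that crossed it.

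The other capped RNAs of a list drawn up for this pathway were read beside U7. Of 11 RNAs on it, 6 had a name in a file, and U11, U12, U4atac, U8 and U13 had none. Apart from U2, U3B and U7, 4 names of the list had 10 or more reads in the TAP and untreated testis libraries together. Of these 4, 3 were at least 2-fold higher after TAP per 5.8S rRNA read, against 26.3% of all names, with a median ratio of 5.84 against 0.590. U5, the snRNA that holds the exons in place during splicing, had a ratio of 24.6 (23.7 to 25.4). U1a1, an annotated form of the U1 RNA that binds the 5' splice site, stood at 7.33 (6.45 to 8.32), and its variant U1b6 at 4.36 (2.25 to 8.45). U4, which is paired with U6 until the spliceosome is activated, stood at 1.15 (1.05 to 1.27), below the 2-fold limit. Per listed read U4 was at 2.13, and then all 4 names were at least 2-fold higher, against 37.7% of all names. The interval of U7 overlapped those of U1a1 and U1b6, lay below that of U5 and lay above that of U4.

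After 5' polyphosphatase, 0 of the same 4 names were at least 2-fold higher than untreated, against 41.1% of all names, and their median ratio was 1.37 against 1.76 over all names. They were not alike. U1a1 stood at 1.83 (1.55 to 2.16), an interval above 1, and U1b6 at 1.98 (0.866 to 4.51). U5 was at 0.896 (0.848 to 0.948) and U4 at 0.897 (0.791 to 1.02). The interval of U7, which ended at 1.72, overlapped those of all 4.

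The RNAs of Pol III without a trimethylguanosine cap had higher ratios than U7 after 5' polyphosphatase. U6 stood at 3.55 (2.44 to 5.16), 5S rRNA at 7.18 (6.91 to 7.46) and 7SK, a regulator of transcription elongation, at 2.29 (2.05 to 2.54), each with an interval above that of U7. The annotated 7SK, at 331 nt, is longer than the range given for the inserts, and the annotated U6, at 107 nt, is shorter. Whether their reads came from the whole RNA, and which 5' end those reads carried, was not tested. A ratio above 1 after TAP was not limited to capped names. After TAP 5S rRNA stood at 4.14 (3.99 to 4.30) and 7SK at 3.44 (3.14 to 3.76) times the untreated library, so that 2 of these 3 RNAs were at least 2-fold higher, and U6 was at 1.27 (0.869 to 1.86). In these counts the intervals of 5S rRNA, 7SK and U6 lay below that of U7. The paper states a larger rise of 5S rRNA after TAP with the same internal control, and its value lies inside the interval of U7. Why the paper's value and the one found here differ was not tested, so the order of U7 and 5S rRNA after TAP is not settled. A small nucleolar RNA name, snoRNA_snoU2, singled out after its values were seen, had the same 19 reads untreated and 10 after 5' polyphosphatase as U7, but 2 reads after TAP where U7 had 390. It is a separate name and was not counted as U2.

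**Figure D3:**
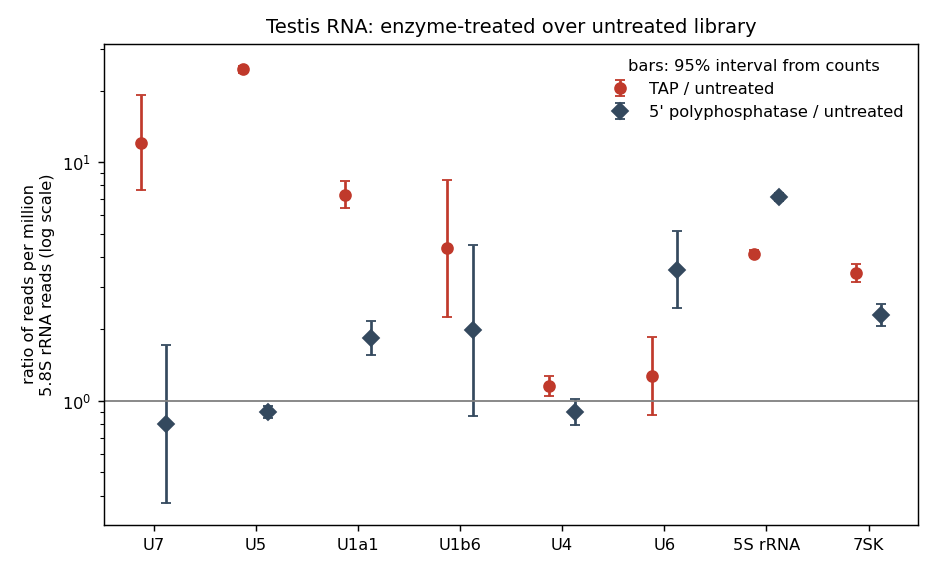
Ratio of each enzyme-treated testis library to the untreated one, in reads per 1000000 5.8S rRNA reads (log axis), for U7 and 7 other small RNAs, with 95% intervals from the counts. U7 and U5 were at 12.1 and 24.6 after TAP and below 1 after 5' polyphosphatase, whereas U6 and 5S rRNA were at 1.27 and 4.14 after TAP and at 3.55 and 7.18 after 5' polyphosphatase. The rest lay between these patterns. After TAP and 5' polyphosphatase, U1a1 was at 7.33 and 1.83, U1b6 at 4.36 and 1.98, U4 at 1.15 and 0.897, and 7SK at 3.44 and 2.29.

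U3B had 1 read in the untreated testis library, 1 read after 5' polyphosphatase and no row after TAP. These counts are under the 3 reads taken as the floor, which stand for 9.49 RPM untreated and 14.4 RPM after 5' polyphosphatase, and no ratio is given. U2 had no row in any testis table. A missing row is not read as absence, because the shortened names took 12233, 165065 and 9954 reads in the untreated, TAP and 5' polyphosphatase tables, and which RNAs they hold is not stated.

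In spermatogonia U2 had 75 reads in replicate 1 and 113 in replicate 2, which are 60.6 RPM (47.7 to 76.0) and 219 RPM (181 to 263), with a mean of 139.9 ± 112 RPM (SD, n = 2). Replicate 2 was the higher one and the intervals did not overlap. U3B had 14 and 11 reads, or 11.3 RPM (6.19 to 19.0) and 21.3 RPM (10.6 to 38.2), with a mean of 16.3 ± 7.08 RPM (SD, n = 2), and its intervals overlapped. U7 had 315 and 509 reads, or 255 RPM (227 to 284) and 987 RPM (903 to 1077), with a mean of 621 ± 518 RPM (SD, n = 2). Per 1000000 listed reads the means were 40.2 ± 23.3 for U2, 4.97 ± 0.776 for U3B and 177 ± 110 for U7 (SD, n = 2).

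The order U7, U2, U3B held in both replicates, and within a library the ratios between names do not depend on a denominator. Each insert was read as 1 read whatever its length, so counts were set side by side without division by length, and without molecular identifiers copies of a molecule could be counted more than once. U7 had 4.20 reads for each U2 read in replicate 1 (3.27 to 5.40) and 4.50 in replicate 2 (3.67 to 5.52). For each U3B read U2 had 5.36 (3.03 to 9.48) and 10.3 (5.53 to 19.1). Of the 404 and 633 reads of the 3 names together, U7 took 78.0% (Wilson 95% interval 73.7% to 81.7%) and 80.4% (77.1% to 83.3%), U2 18.6% (15.1% to 22.6%) and 17.9% (15.1% to 21.0%), and U3B 3.47% (2.08% to 5.73%) and 1.74% (0.973% to 3.08%). These intervals overlapped between the replicates for each name.

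U2 had few reads beside U1a1, U4, U5 and U6 of the spliceosome. It had 0.969 reads for every 1000 reads of U1a1 in replicate 1 and 0.964 in replicate 2, from 77384 and 117163 reads of U1a1. U5, with 167207 and 248617 reads, had 2229 (1778 to 2796) and 2200.2 (1830 to 2646) reads for each U2 read. U4 had 1638 and 1945 reads and U6 11044 and 11183, all above U2. U2 ranked 252 of 874 names and 187 of 772. U1b1, another U1 variant, was the nearest spliceosomal name, with 48 and 60 reads. How fully each RNA was recovered as reads was not tested, so these counts do not rank the RNAs by amount.

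The replicates differed in level. Per 5.8S rRNA read, replicate 2 was 3.61 times replicate 1 for U2 (2.70 to 4.84), 3.88 times for U7 (3.37 to 4.46) and 1.88 times for U3B (0.856 to 4.15). The value of U3B was not distinguishable from 1 and fell to 0.950 per listed read other than rRNA. Of 512 names with 10 or more reads, 26.6% were at least 2-fold higher in replicate 2, and the median ratio of all was 1.54. The other 5 capped names of the list were all at least 2-fold higher, with a median of 3.40. U1a1 stood at 3.63 (3.60 to 3.67), U5 at 3.57 (3.55 to 3.59), U1b6 at 3.40 (3.30 to 3.50) and U4 at 2.85 (2.67 to 3.04). Ratios past 2-fold were not limited to capped names. U6 stood at 2.43 (2.37 to 2.49) and 5S rRNA at 4.27 (4.20 to 4.34). So did 81 of 163 tRNA names pass 2-fold, against 8 of 146 small nucleolar RNA names. The intervals of U2 and U7 each included the value of U1a1, and those of U2 and U7 overlapped each other. With all listed reads as the denominator the ratio of replicate 2 to replicate 1 was 2.39 (1.79 to 3.21) for U2, 2.57 (2.23 to 2.95) for U7 and 1.25 (0.567 to 2.75) for U3B. The count of names past 2-fold depended on the denominator. Of the other 5 capped names 3 were at least 2-fold higher per listed read and 3 with the median of ratios, against 10.1% and 9.55% of all names. Per sequenced read and per listed read other than rRNA it was 0 of 5, against 5.26% and 4.68% of all names, and U2 (1.86 and 1.82) and U7 (1.99 and 1.95) were below 2-fold as well. The share of 5.8S rRNA and that of all snRNA names, 8.39% and 19.6% of listed reads, also differed between the replicates, and their part in these ratios was not tested.

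**Figure D4:**
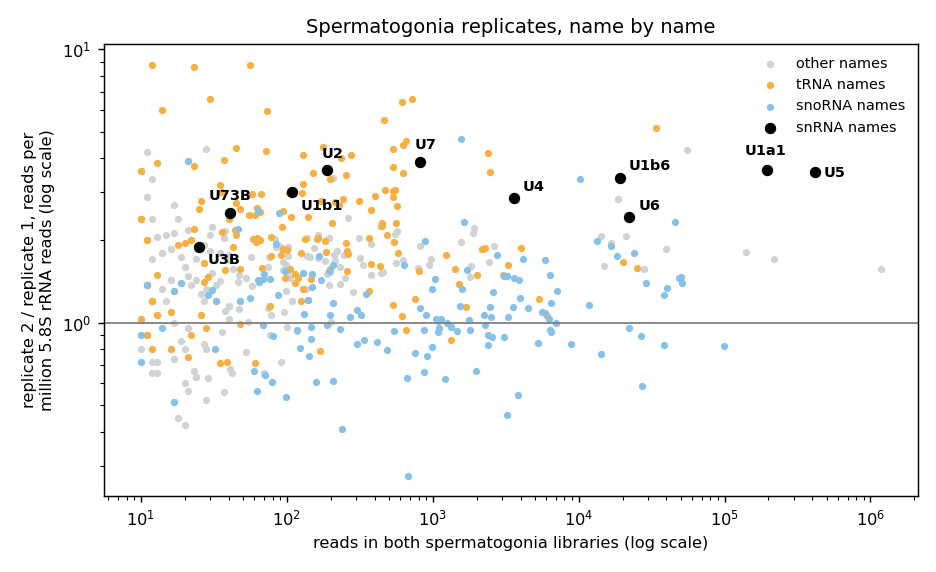
Ratio of spermatogonia replicate 2 to replicate 1 in reads per 1000000 5.8S rRNA reads (log axis) against the reads of both libraries together (log axis), for 512 names with 10 or more reads. The snRNA names, in black, lay between 1.88 for U3B and 3.88 for U7, against a median of 1.54 over all names.

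As a share of all reads with an snRNA name, U7 took 0.115% untreated (Wilson 95% interval 0.0736% to 0.179%), 0.126% after TAP (0.115% to 0.140%) and 0.0786% after 5' polyphosphatase (0.0427% to 0.145%). In spermatogonia it took 0.119% (0.106% to 0.132%) and 0.130% (0.119% to 0.142%), and all 5 intervals overlapped. In testis most of these snRNA reads stood under the shortened names, and in spermatogonia none did. Without the shortened names the share of U7 was 0.442% untreated (0.283% to 0.690%), 0.272% after TAP (0.246% to 0.300%) and 0.362% after 5' polyphosphatase (0.196% to 0.664%). The 3 testis intervals overlapped each other and lay above those of spermatogonia, whose shares stayed at 0.119% and 0.130%. For every 1000 reads of U1a1, U7 had 73.9, 122 and 32.3 reads in the same testis libraries and 4.07 and 4.34 in spermatogonia. Whether the share of U7 was alike in testis and spermatogonia thus depended on which names were counted. The snRNA reads themselves were 1.42% of listed reads untreated, 28.9% after TAP and 1.18% after 5' polyphosphatase. U2 took 0.0282% (0.0225% to 0.0354%) and 0.0289% (0.0241% to 0.0348%) of the snRNA reads in the spermatogonia replicates.

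**Figure D5:**
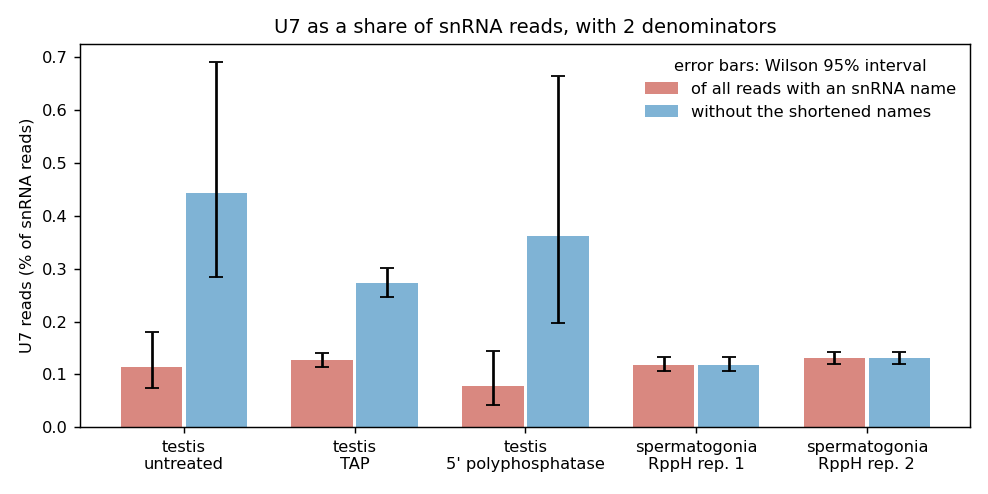
U7 reads as a percent of snRNA reads in the 5 libraries, over all reads with an snRNA name (red bars) and without the shortened names (blue bars), with Wilson 95% intervals. The red bars ran from 0.0786% to 0.130% with overlapping intervals, while the blue ones ran from 0.272% to 0.442% in testis and stood at 0.119% and 0.130% in spermatogonia.

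Set beside testis after TAP, U7 in spermatogonia was at 0.350 times the level per 5.8S rRNA read in replicate 1 (0.302 to 0.406) and at 1.36 times in replicate 2 (1.19 to 1.55), with a mean of 0.853 ± 0.712 (SD, n = 2). The replicates thus fell on both sides of the testis level. Per listed read both were lower, at 0.272 (0.235 to 0.316) and 0.699 (0.613 to 0.798). U5 behaved likewise, at 0.524 and 1.87 per 5.8S rRNA read, while U1a1 was at 10.5 and 38.2 and U6 at 57.0 and 138. Tissue, enzyme and kit differ together between these libraries and cannot be told apart, and naming differs too.

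The names most like U7 were sought over all 5 libraries among the 78 names with at least 100 reads in each, by the Euclidean distance of log2 reads per listed read after centring. U5 was nearest at 1.48, then U4 at 3.51 and 5S rRNA at 3.98, against a median of 7.12 over the 78. For U2 only the 2 spermatogonia libraries could be used, and among 188 names U1a1 (0.00498), U5 (0.0135) and tRNA_chr14.trna209-ArgACG (0.0176) were nearest, with a median of 0.847. For U3B, with 14 and 11 reads, the nearest were tRNA_chr3.trna745-GluCTC (0.00722), tRNA_chr19.trna639-LysTTT (0.00844) and the LINE L1MdTf_III (0.00945), with a median of 0.389. With 2 libraries this distance reflects 1 ratio, and the counting errors of U2 and U3B are far larger than the distances of their nearest names. The order of those names is therefore not resolved.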

How the data were processed

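The authors deposited raw counts of reads for every repeat or RNA name, 1 table for each of 5 libraries. The MiSeq reads had been trimmed by the authors with Cutadapt, only reads with the 3' adaptor were kept, and names were given by RepeatMasker, whose version and library are not given in the sources used here. Lines of totals and lines without a count were skipped, and class suffixes of the spermatogonia names were removed.

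RPM was computed per 1000000 5.8S rRNA reads. Ratios have 95% intervals on the log scale, with the reciprocals of both counts added as the variance. Levels have exact Poisson and shares Wilson intervals. In counts of names at least 2-fold higher, names with 10 or more reads over both libraries were used and counts under 3 were set to 3. No test was made, since each testis treatment has 1 library. Alternatives changed the denominator (listed reads, sequenced reads, listed reads other than rRNA, median of ratios), the minimum of reads per name and the replicates, or added a pseudocount of 0.5 reads. After seeing the data, the denominators were also changed for the capped names, and shortened snRNA names were left out of the U7 share. The members and lists were chosen with earlier results of these data known. The text names the 3 members, U1a1, U1b1, U1b6, U4, U5, U6, 5S and 5.8S rRNA, 7SK and the 3 names most like each member. Of the shortened snRNA names only some are named, and snRNA_U73B was not described. Ratio intervals were tested on simulated counts that varied by counting error alone, so the simulation could not show how they hold between libraries. Gene positions and sequences came from GENCODE M21 (GRCm38), and pseudogenes from RefSeq. The spermatogonia libraries are described as biological replicates, without saying which mice they came from. Intervals were computed with scipy 1.17.1 and numpy 2.4.6 under Python 3.11.15, and plots with matplotlib 3.10.9.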

Additional observations from a re-analysis of the deposited data

How the results depend on the processing

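None of the U7 testis ratios and of the U2 and U7 replicate ratios changed its side of 1 under another denominator, and none of the U7 testis ratios did with the pseudocount, which was tried for these 3 alone. The U7 ratio of TAP to untreated was 22.3 per listed read, 19.6 per sequenced read, 32.5 with the median of ratios and 33.9 per listed read other than rRNA, against 12.1 per 5.8S rRNA read. That of TAP to 5' polyphosphatase was 39.5, 32.0, 51.9 and 65.7 in the same order, against 15.1. The ratio of replicate 2 to replicate 1 was 2.39, 1.86, 2.29 and 1.82 for U2, against 3.61, and 2.57, 1.99, 2.46 and 1.95 for U7, against 3.88. For U3B it fell to 0.969 per sequenced read and 0.950 per listed read other than rRNA, with intervals that included 1. With at least 100 reads, the names at least 2-fold higher numbered 32 of 168 after TAP and 48 of 163 after 5' polyphosphatase. They were 8 of 174 in TAP over 5' polyphosphatase and 71 of 275 in replicate 2. With 10 or more reads they were 85 of 323, 129 of 314, 18 of 346 and 136 of 512 in the same order. The limit itself leaves fewer names. Per listed read the counts for TAP over 5' polyphosphatase and for replicate 2 were 66 of 347 names and 52 of 513. With no minimum that for replicate 2 was 499 of 943 names, of which 329 had at most 3 reads in both libraries and were given the same ratio of 2.40 by the floor and the 5.8S rRNA reads. Chosen after seeing the data, the count of the other 5 capped names in replicate 2 was 3 per listed read, 0 per sequenced read, 3 with the median of ratios and 0 per listed read other than rRNA, against 5. Without the shortened names, also chosen after seeing the data, the U7 share of snRNA reads was 0.442%, 0.272% and 0.362% in testis, against 0.115%, 0.126% and 0.0786%. Leaving out a replicate gave 60.6 to 219 RPM for U2, 11.3 to 21.3 for U3B, 254.7 to 987 for U7, and 0.350 to 1.36 for U7 over testis TAP. No paired analysis was possible because only the spermatogonia group has numbered replicates. Of 72 alternatives 42 stayed within the interval, SD or 1.5-fold range of the value reported and 30 did not. With 2 replicates, leaving 1 out always gives a value within the SD of their mean. Those alternatives are among the 42 and could not have moved. The same holds for the U7 share in spermatogonia without the shortened names, since no reads stood under them there. The counts with at least 100 reads are among the 30, and the limit alone leaves fewer names to count. The 10 to 19 reads of U7 in 2 testis libraries and the 11 to 14 of U3B in spermatogonia limit the precision of their ratios, and so do the single library per testis treatment, the spread between the replicates and the denominator.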
